A study of Caenorhabditis elegans with 4 samples.

Results

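PHA-4 is the FoxA (winged-helix) transcription factor of Caenorhabditis elegans. It specifies the cells of the pharynx, the feeding organ, and is also known from the intestine and the gonad. FoxA factors bind DNA as single proteins and can reach sites in closed chromatin, which is why they are called pioneer factors. The autosomes of this worm have a gene-rich centre with little recombination and repeat-rich arms in which most crossovers fall. Chromosome IV is also known as the chromosome that carries most piRNA genes. Binding on this chromosome is described here through 676 regions, which are all the rows for IV in the deposited combined list of 3890 peaks.

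The peaks come from chromatin immunoprecipitation and sequencing (ChIP-seq) of fourth-stage (L4) larvae, all hermaphrodites of the strain OP37 raised at 20 °C. The labels give 2% formaldehyde for every sample. The strain carries the mutation unc-119(ed3) III and a bombarded transgene, wgIs37, which holds an unc-119(+) rescue gene and the tagged copy pha-4::TY1::EGFP::3xFLAG. There were 2 PHA-4 ChIP samples, precipitated through the GFP part of the tag, and 2 Input samples of total chromatin DNA with the same genotype, stage and sex. Whole animals were used, so binding is averaged over every cell that makes the tagged protein, and sites of the untagged protein were not measured separately. The Input samples have no peak list here and enter no comparison. The lists hold no read counts, so the depth of each library is unknown. Nothing in the labels says that the 2 ChIP samples came from separate cultures, and the spread between them may be technical.

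Positions are those of the WormBase build WS220, on chromosome IV throughout. Neither an annotation nor a genome sequence of that build was at hand. Regions are therefore named by where they lie, and their genes and sequences are not stated. Each combined peak has a q-value from the authors' caller, used here to rank peaks (rank 1 is the lowest q on IV). The replicate lists have 2950 peaks on IV in replicate 1 and 3035 in replicate 2, each ranked by the authors' score. That score is capped: 702 of the replicate 1 peaks (23.8%) and 698 of the replicate 2 peaks (23.0%) on IV stand at its maximum, and among these the order rests on the deposited peak number. Ranks on IV up to 702 in replicate 1 and 698 in replicate 2 are thus ties in score, and a difference between such ranks is a difference in peak number alone. For comparisons at like length, the first 3890 peaks of each replicate list were taken (the limited lists), of which 580 and 586 are on IV. All of these stand at the maximum score, so the limited lists are a selection by peak number among equal scores. Intervals in brackets are exact (Clopper-Pearson) 95% intervals over peaks. They cover counting error only and treat neighbouring peaks as independent. With 2 libraries of 1 group, no test was made.

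The peaks spread over the whole chromosome, from 51081 to 17490957, but were most frequent in the middle and thinnest towards the right end. The length of IV was taken as 17490983 bp, the largest coordinate in the lists, and peaks were assigned by midpoint to the outer 33.3% on each side and the middle 33.3%, called the left arm, the right arm and the centre. These are divisions by length and not by recombination. The left arm held 200 peaks (29.6%, 26.2% to 33.2%), the centre 296 (43.8%, 40.0% to 47.6%) and the right arm 180 (26.6%, 23.3% to 30.1%). These are 34.3, 50.8 and 30.9 peaks per Mb. Peaks covered 1.66% of the left arm, 2.29% of the centre and 1.40% of the right arm. The other autosomes divided in the same way held 40.5% (III) to 49.8% (I) of their peaks in the centre, so the value for IV lies within their range.

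Each replicate list gave nearly the same division. Of the replicate 1 peaks in the limited list, 29.1% lay in the left arm, 45.7% in the centre and 25.2% in the right arm. In replicate 2 the shares were 27.8%, 46.6% and 25.6%. The interval of the centre did not overlap that of either arm in any of the 3 lists. The intervals of the arms overlapped each other in all 3, so the higher count in the left arm was within counting error. The 3 lists are not independent, since the combined one rests on the same ChIP libraries.

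In bins of 1 Mb the 17 whole bins held 13 to 60 combined peaks. The fullest were 8000001 to 9000000 and 9000001 to 10000000, with 60 peaks each, and 11000001 to 12000000 with 56. The sparsest were 15000001 to 16000000 and 16000001 to 17000000, with 13 peaks each, followed among whole bins by 1 to 1000000 with 24. The last, partial bin of 0.491 Mb had 18 peaks, or 36.7 per Mb, so the low density did not run to the right end.

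**Figure D1:**
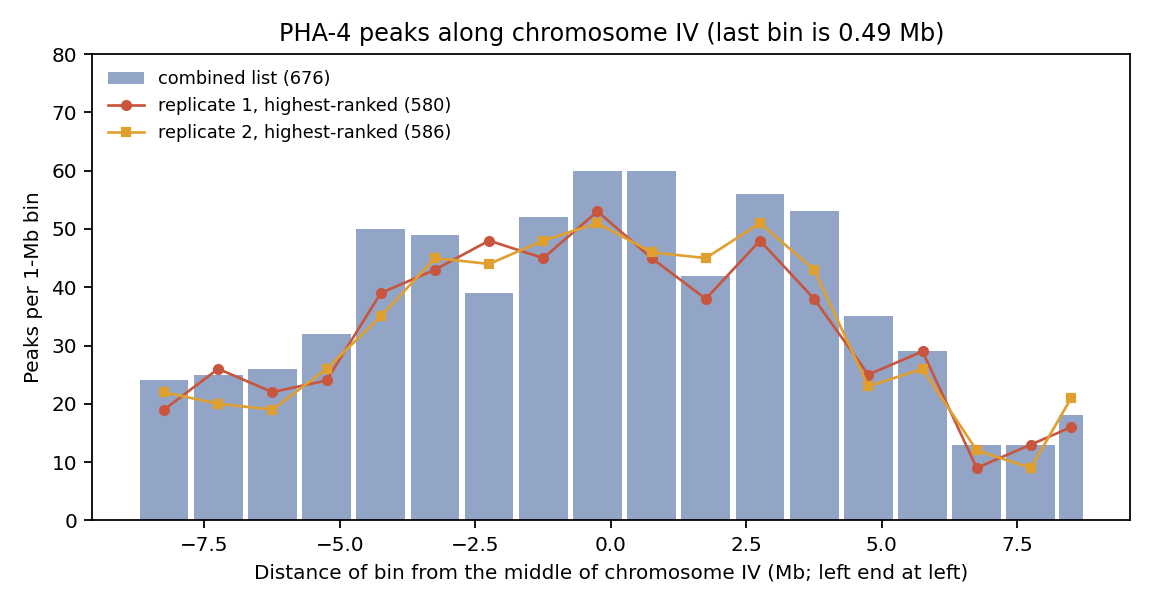
Number of peaks in each 1-Mb bin (y axis) against the bin's distance from the middle of chromosome IV in Mb (x axis), for the combined list (bars) and the limited list of each replicate (circles, replicate 1; squares, replicate 2). Bins near the middle reach 60 combined peaks, the pair of bins from 15 to 17 Mb drops to 13 each, and both replicate lines follow the bars; the last bin is shorter than the others.

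The stretch from 15 to 17 Mb, singled out after the bins had been seen, makes up 11.4% of the chromosome and held 26 combined peaks (3.85% of those on IV, 2.53% to 5.58%). The limited lists had 22 in replicate 1 (3.79%) and 21 in replicate 2 (3.58%). The whole replicate lists had 154 peaks of replicate 1 (5.22%) and 159 of replicate 2 (5.24%), higher shares that lie within the interval of the combined one. The few combined peaks there were ordinary in width, with a median of 400 bp, and both replicates had a peak at 25 of the 26. The one with the lowest q was 15471195 to 15471742 (rank 67 on IV).

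The strongest regions were fewer in the right arm than elsewhere. Of the 100 combined peaks of lowest q on IV, 40 lay in the left arm, 43 in the centre and 17 in the right arm. The share of 17% in the right arm (10.2% to 25.8%) stood beside 26.6% of all peaks, with overlapping intervals. Of the first 20, 10 were in the left arm, 8 in the centre and 2 in the right arm, and those 2 included the very first. Both replicates had a peak in each of the first 20, and 10 of them were wider than 1 kb, with a median width of 1021 bp (367 to 3938 bp).

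The peak of lowest q was 17277722 to 17281659, close to the right end, which was also the widest on IV at 3938 bp (q = 1.83e-67). Its best replicate peaks ranked 97 on IV in replicate 1 and 173 in replicate 2. The second was 5604145 to 5605890 (1746 bp, q = 3.88e-41), whose best peaks ranked 47 and 2. All 4 of these replicate peaks stand at the maximum score, so the scores do not order the 2 regions.

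The third was 14032498 to 14034765 (2268 bp, q = 5.08e-40), with best ranks of 43 in replicate 1 and 142 in replicate 2. The fourth was 11025984 to 11028234 (2251 bp, q = 6.77e-26), with best ranks of 15 and 92. After these 4, q rose to 1.24e-20 at the fifth, 3294539 to 3295082, which was only 544 bp wide. Its only replicate peaks ranked 1 on IV in replicate 1 and 5 in replicate 2.

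Ranks 6 to 10 were 10935918 to 10937243, 9196323 to 9198520, 5603111 to 5603851, 5753106 to 5754557 and 10821266 to 10822462. Their best replicate 1 peaks ranked 8, 59, 36, 27 and 83 on IV, and their best replicate 2 peaks 3, 71, 17, 102 and 7. Ranks 11 to 15 were 5785259 to 5785936, 11283946 to 11284735, 3227433 to 3228186, 11593336 to 11594706 and 4406852 to 4407696. Of ranks 11 to 15, 11283946 to 11284735 had best ranks of 4 in replicate 1 and 756 in replicate 2, the second below the maximum score.

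Ranks 16 to 20 were 9670868 to 9671404, 11431729 to 11432113, 5655925 to 5657503, 4749899 to 4750265 and 5607193 to 5607849. Replicate 1 placed 11431729 to 11432113 near the end of its list. It was 385 bp wide with q = 4.60e-17, but its only replicate 1 peak ranked 2631 of 2950 on IV while its only replicate 2 peak, at 485, stood at the maximum score. The peak 4749899 to 4750265, 367 bp wide, ranked 19 by q and 2 on IV in replicate 1 and 1 in replicate 2. Over the first 20, 10 contained a peak from the first 100 on IV of both replicates, and 3 contained one from the first 20 of both.

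A group of strong peaks lay close together to the left of the centre. In a window of 200 kb from 5603111 to 5803110, 6 of the 20 peaks of lowest q were found, among 14 combined peaks in all. No other window of that length starting at one of the 20 held more. Combined peaks covered 6.10% of it, against 1.78% of the whole chromosome. The window was chosen for its content after the ranks were known, so its count is a description.

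The highest-ranked peaks of the replicates were mostly strong by q as well. In replicate 1 the first 5 on IV were 3294674 to 3294819, 4749901 to 4750216, 6839094 to 6839409, 11284158 to 11284473 and 654773 to 655088. They lie in combined peaks of rank 5, 19, 26, 12 and 155. In replicate 2 the first 5 were 4750008 to 4750140, 5604507 to 5604826, 10935996 to 10936315, 13240508 to 13240827 and 3294579 to 3294898, which lie in combined peaks of rank 19, 2, 6, 46 and 5.

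Both lists therefore had the regions around 3294539 and 4749899 among their first 5. At each of these, 1 library gave a peak narrower than the nearly fixed width of its list: 146 bp at the first in replicate 1, and 133 bp at the second in replicate 2. On IV all other peaks were 316 bp wide in replicate 1 and 320 bp in replicate 2.

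Widths of the combined peaks ran from 121 to 3938 bp, with a median of 374 bp (interquartile range 304 to 514 bp). Together they spanned 311.8 kb, or 1.78% of the chromosome. Most, 490 of the 676 (72.5%), were 200 to 500 bp wide, 9 were narrower and 151 (22.3%) were 501 bp to 1 kb wide. Only 26 (3.85%, 2.53% to 5.58%) were wider than 1 kb, while the share over all nuclear chromosomes was 5.76%, just above that interval. Those 26 held 13.7% of the covered length.

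Width and q moved together. The median width was 635.5 bp for ranks 1 to 100, 441.5 bp for ranks 101 to 200, 393.5 bp for ranks 201 to 300 and 271.5 bp for ranks 601 to 676. Of the 26 peaks over 1 kb, 21 were among the first 100 and none lay beyond rank 300. A wider peak can hold more reads, so width and q are not separate measures of strength. Both come from the same caller.

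**Figure D2:**
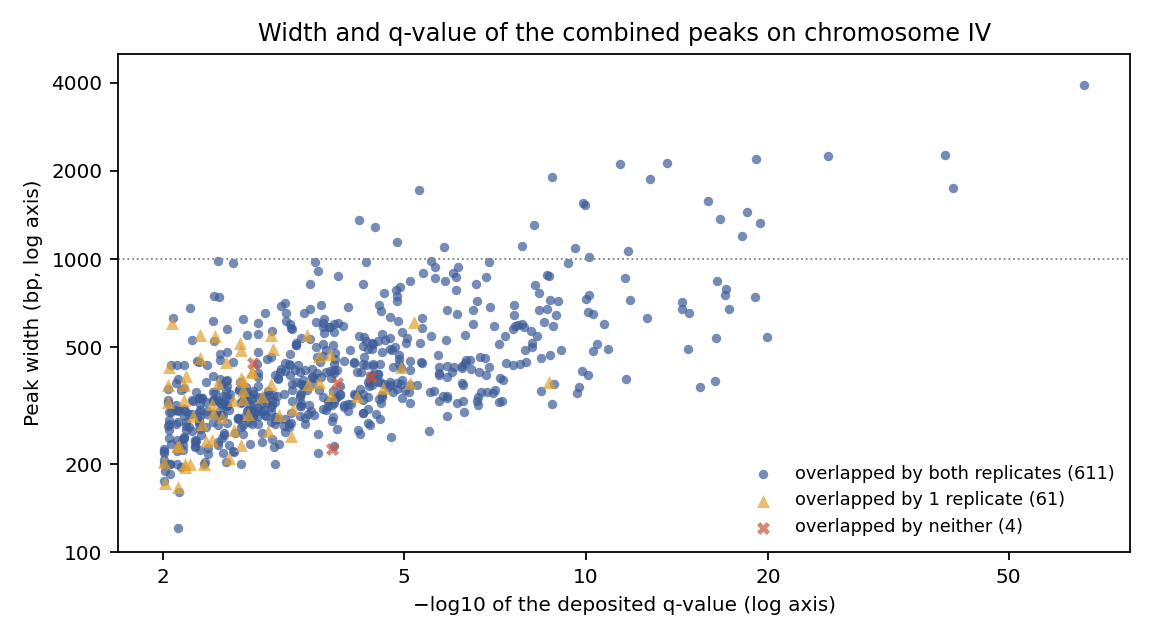
Width of each combined peak on IV in bp (y axis, log scale) against −log10 of its deposited q-value (x axis, log scale), with symbols for peaks overlapped by both replicates (circles, 611), by 1 (triangles, 61) and by neither (crosses, 4). Peaks above the dotted line at 1000 bp are all circles, and triangles gather at the left, where q is highest.

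The 6 peaks over 2 kb were broad domains in which each replicate list gave several peaks, some of which overlap one another. The widest, 17277722 to 17281659, held 6 peaks of replicate 1 and 7 of replicate 2, with midpoints from -1787 to 1555 bp of its centre in replicate 1 and from -1920 to 1952 bp in replicate 2 (negative to the left). The peak 14032498 to 14034765 held 3 and 5 peaks, and 11025984 to 11028234 and 9196323 to 9198520 each also held 3 and 5. The remaining 2 over 2 kb were 4471117 to 4473242 (2126 bp, rank 24), with 4 and 3 peaks, and 2709604 to 2711713 (2110 bp, rank 31), with 4 in each list.

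The best-ranked peaks of the 2 replicates, all at the maximum score, lay close together in 2 of these 6 domains and apart in the other 4. As ties in score they are best by peak number alone, so lying apart does not show different strongest places. In 14032498 to 14034765 the best peaks of the 2 lists stood 378 and 397 bp to the right of the centre. In 9196323 to 9198520 the best peaks stood 807 and 912 bp to the right. In the widest, 17277722 to 17281659, they stood at 1555 bp in replicate 1 and -380 bp in replicate 2. In 11025984 to 11028234 they stood at 725.5 and -292.5 bp. They were at -489 and 323 bp in 4471117 to 4473242, and at 647 and -133 bp in 2709604 to 2711713. Other peaks at the maximum score lay closer. In 11025984 to 11028234, replicate 1 also had one at -333.5 bp and replicate 2 one at 688.5 bp. In 17277722 to 17281659 the lists also had peaks at -1130 and -1118 bp. The nearest such pairs were at 163 and 323 bp in 4471117 to 4473242, and at -418 and -133 bp in 2709604 to 2711713.

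**Figure D3:**
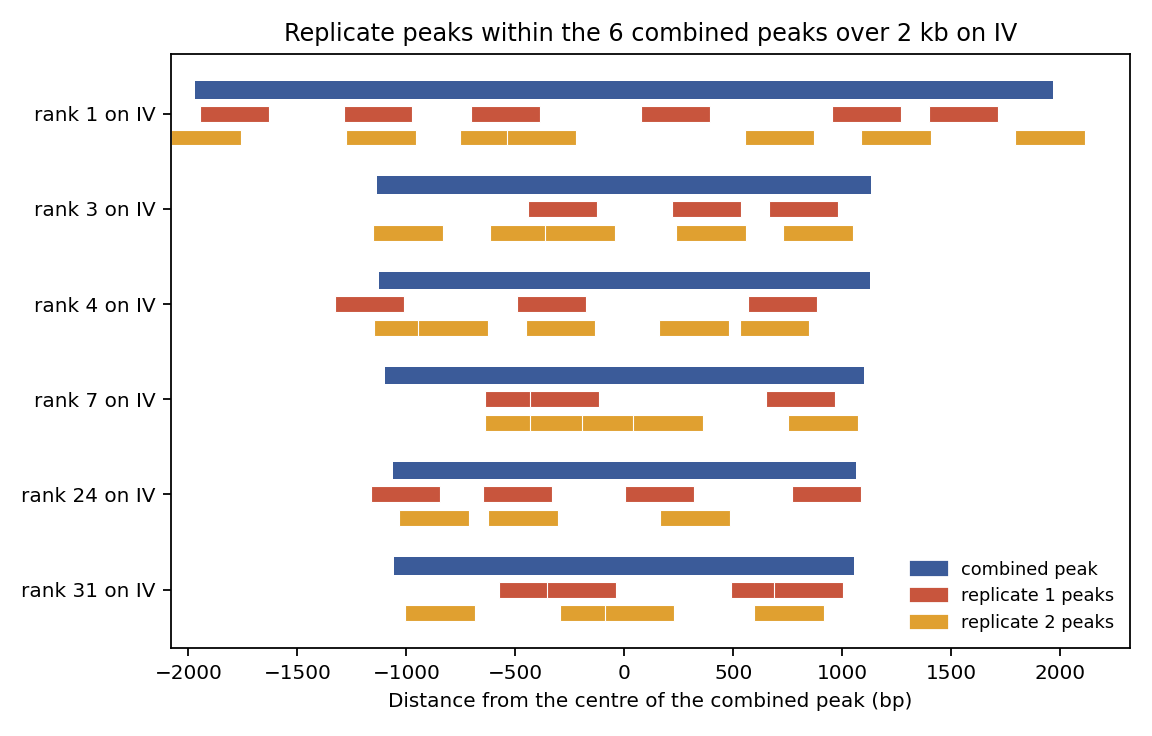
The 6 combined peaks over 2 kb on IV (dark bars), ordered by rank, with the replicate 1 peaks (upper row) and replicate 2 peaks (lower row) that overlap each, against distance in bp from the centre of the combined peak (x axis). Each domain holds 3 to 7 replicate peaks per list, several of them at matching places in both rows.

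Completing the 10 widest were 3232676 to 3234577 (1902 bp, rank 54), 5664948 to 5666822 (1875 bp, rank 25), 5604145 to 5605890 (rank 2 above) and 3384052 to 3385771 (1720 bp, rank 159). Of these 10, 6 lay in the left arm and 2 each in the centre and the right arm. The 10 narrowest peaks measured 121 to 200 bp. The 9 under 200 bp had a median q of 0.00757, and 6 of them were overlapped by both replicates. At the end of the list, the 3 peaks of largest q were 14494181 to 14494405, 12204891 to 12205111 and 17267866 to 17268072, with q of 0.00979, 0.00981 and 0.00982. Each had a peak of both replicates.

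Grouping of neighbouring peaks on IV was near that of the whole list. When peaks less than 5 kb apart were joined, 388 of the 676 fell into 139 groups of 2 or more, and 288 (42.6%) stood alone, where 42.9% of all combined peaks did. Groups of 5 or more, called clusters here, numbered 11 and held 75 peaks (11.1%), where the share of peaks in such clusters over all nuclear chromosomes was 12.2%. The chromosomes differed, with 0% in clusters on I and 20.6% on V, and with 59.5% alone on I and 33.4% on V. The clusters on IV took up 135.3 kb, or 0.774% of the chromosome. Of the 11, 6 lay in the left arm, 2 in the centre and 3 in the right arm.

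The fullest cluster, 12196532 to 12209245, had 11 peaks within 12.7 kb, and all 11 were overlapped by both replicates. None of its peaks was among the first 100 by q: ranks ran from 101 to 675, and the widest was 608 bp. It is a dense row of peaks with a median width of 329 bp, beside 374 bp for all peaks on IV. The next, 5586319 to 5607849, had 10 peaks within 21.5 kb, again all overlapped by both replicates, and 5 of them were among the first 100. It contains the peaks of rank 2, 8 and 20 and opens the window of strong peaks described above.

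A run of 3 clusters lay between 4385970 and 4477424. The first of them, 4385970 to 4407696, had 9 peaks, of which 6 were overlapped by both replicates, and ends with the peak of rank 15. The second, 4445763 to 4455031, had 5 peaks, 3 of them overlapped by both. The third, 4463301 to 4477424, had 6 peaks, all overlapped by both, with the domain of rank 24 in its middle. The 200-kb window with the most combined peaks on IV, 4360545 to 4560544 with 24, covers this run.

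The cluster 14605080 to 14620939 had 7 peaks, 6 of them overlapped by both replicates. Clusters of 6 were also at 4019802 to 4027837 and 9989550 to 9999294. Those of 5 were also at 1063857 to 1070932, 11283946 to 11289564 and 11952582 to 11962229. The first of these was the most fully covered of the 11, with peaks over 53.3% of its 7.08 kb, while the others were covered at 16.5% to 45.1%.

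**Figure D4:**
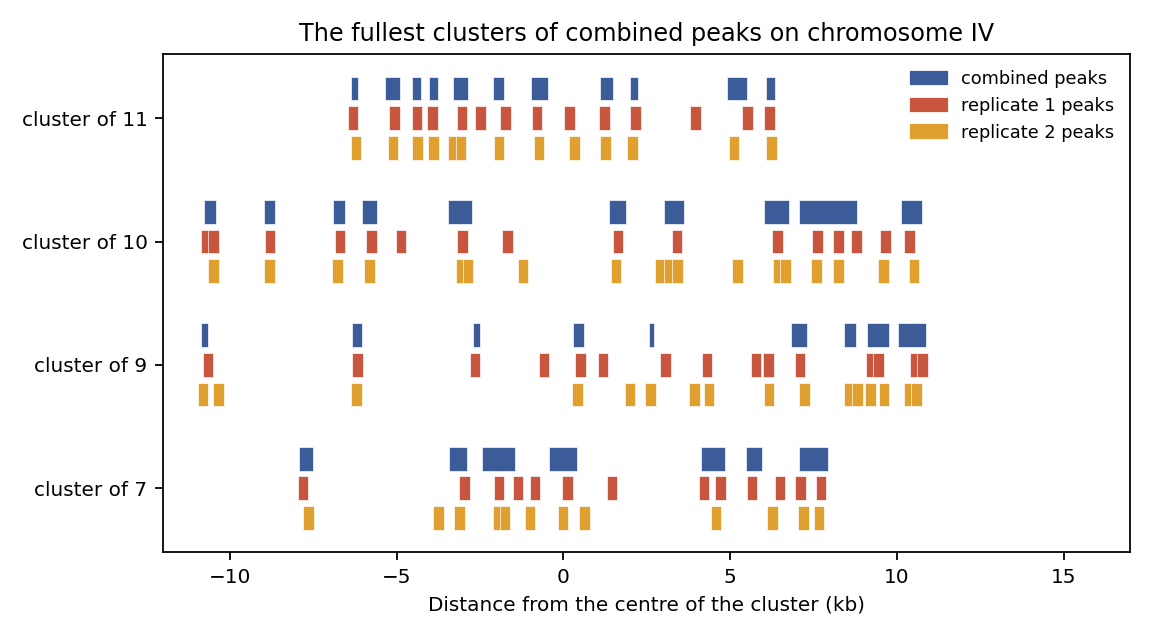
The 4 fullest clusters on IV, with 11, 10, 9 and 7 combined peaks (dark bars), and the peaks of replicate 1 (middle row) and replicate 2 (lower row) in each, against distance in kb from the centre of the cluster (x axis). In the cluster of 11 no bar exceeds 608 bp and the bars are mostly matched by both rows, and in the cluster of 10 the widest bars stand at the right.

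How many clusters there were depended on the list and on the joining distance. With joining within 2 kb there were 5, and within 10 kb there were 21. The limited replicate lists gave 7 clusters in replicate 1 and 3 in replicate 2, of which 3 and 3 touched a cluster of the combined list. Both had a cluster in the region of the cluster of 11. At the cluster of 10, that of replicate 1 ran from 5582230 to 5607616. That of replicate 2 ran from 5582248 to 5594379 and did not reach the combined peaks of rank 2, 8 and 20. Replicate 1 also gave a cluster of 6 at 17277746 to 17281403, within the widest combined peak, which the combined list counts once.

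Between these groups lay long stretches with no combined peak. The median distance from the end of 1 peak to the start of the next was 10490 bp (interquartile range 2120 to 33479 bp), and 249 of the 675 distances (36.9%) were under 5 kb. The 5 longest empty stretches were 15646984 to 15931098 (284.1 kb), 4847021 to 5082963 (235.9 kb), 15039893 to 15275613 (235.7 kb), 16170084 to 16398298 (228.2 kb) and 1456784 to 1657090 (200.3 kb). Of these, 3 fell in the sparse part from 15 to 17 Mb. The second lay between the densest window of all peaks and the window with most of the strongest ones.

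Empty in the combined list did not mean empty in the replicate lists. The stretch of 284.1 kb held 21 replicate 1 peaks and 16 replicate 2 peaks. Of those, 5 and 6 were overlapped by the other replicate, and 0 and 1 were in the limited lists. The stretch 1456784 to 1657090 differed, with 6 peaks of the limited replicate 1 list and 4 of that of replicate 2. Distances over 100 kb numbered 15 in the left arm, 4 in the centre and 13 in the right arm.

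The combined peaks on IV were then set beside the replicate lists, with an overlap of at least 1 bp. Peaks of both replicates overlapped 611 of the 676 (90.4%, 87.9% to 92.5%), where the share over all nuclear chromosomes was 88.6%, within that interval. Replicate 1 overlapped 636 (94.1%, 92.0% to 95.7%) and replicate 2 overlapped 647 (95.7%, 93.9% to 97.1%). A further 25 were found by replicate 1 alone and 36 by replicate 2 alone. The share overlapped by both differed between chromosomes, from 78.8% on V (76.2% to 81.2%) to 94.8% on I (91.7% to 97.0%). The interval of X (92.6% to 96.3%) lay above that of IV, and the interval of V lay below it. The combined list comes from the same libraries, so this overlap is no independent check of it.

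The share overlapped by both fell with rank, from 99% for ranks 1 to 100 (94.6% to 100.0%) to 78.9% for ranks 601 to 676 (68.1% to 87.5%). For ranks 301 to 400 the share was 93% (86.1% to 97.1%). Width fell over the same ranks, and the share also rose with width. It was 88.8% for peaks of 200 to 500 bp, 95.4% for 501 to 1000 bp and 100% for 1001 to 2000 bp. Rank and width were not separated. An overlap of at least 1 bp is also easier to meet for a wider peak, so some of the rise with width is built in. By arm, the share overlapped by both was 88.5% in the left arm, 89.9% in the centre and 93.3% in the right arm, with overlapping intervals. Among the bins, 4000001 to 5000000 had the lowest share, 39 of 50 peaks. The single peak in the first 100 that lacked a replicate was 9048096 to 9048475 (rank 58), which replicate 1 did not overlap.

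Neither replicate overlapped 4 of the 676 peaks (0.592%, 0.161% to 1.51%), where 55 of all 3890 combined peaks were of this kind. By chromosome there were 6 on I, 2 on II, 10 on III, 29 on V and 4 on X. The 4 on IV were 13549272 to 13549666 (rank 229), 9046976 to 9047352 (rank 278), 2902019 to 2902243 (rank 297) and 12815134 to 12815577 (rank 458). The last had peaks of both lists close by, 443 bp away in replicate 1 and 435 bp in replicate 2, whereas the third was 5404 and 3931 bp from the nearest. The second lies next to the peak of rank 58, on its left.

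Where a combined peak held exactly 1 peak of each replicate, which was so for 450 of the 676, the 2 replicate peaks lay close together. Some closeness is set by this selection, since both overlap the same combined peak, which comes from the same libraries. Combined peaks with several or no peaks of a replicate are left out. The midpoints of the 2 replicate peaks were a median of 41 bp apart (interquartile range 17 to 85 bp), and 259 pairs (57.6%) lay within 50 bp. Among such peaks in the first 100 the median was 30 bp (n = 47), and among those in the last 100 it was 56 bp (n = 71). The distance from the combined peak's midpoint was 28.2 bp in replicate 1 and 29.5 bp in replicate 2 (medians).

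Taken from the side of the replicates, the shares were lower. Of the replicate 1 peaks on IV, 1363 (46.2%, 44.4% to 48.0%) were overlapped by replicate 2, and of the replicate 2 peaks 1362 (44.9%, 43.1% to 46.7%) by replicate 1. On the other nuclear chromosomes the shares were slightly higher, 48.3% and 47.5%. For the first 100 on IV the shares were 100% and 98%, and from rank 2001 to the end they were 22.6% in each list. A combined peak overlapped 776 of the replicate 1 peaks (26.3%) and 791 of the replicate 2 peaks (26.1%). By rank this share ran from 99% in each list for the first 100 to 4.63% and 6.09% from rank 2001 on.

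**Figure D5:**
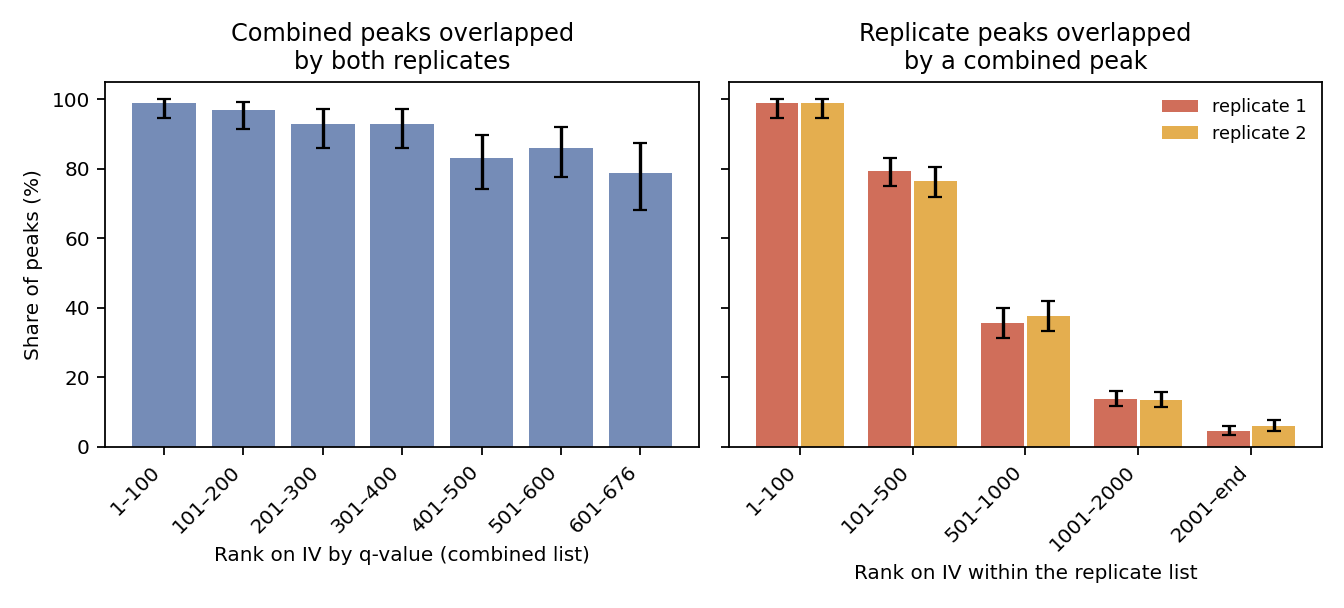
Left, share in % of combined peaks on IV overlapped by both replicates, by rank on q; right, share in % of replicate peaks on IV overlapped by a combined peak, by rank in each list; error bars are exact 95% intervals over peaks. The left bars stay between 78.9% and 99%, while the right bars drop from 99% for the first 100 to under 7% at the end of the lists.

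The replicates also shared peaks that the combined list lacks. On IV there were 653 such peaks in replicate 1 (22.1% of its peaks there) and 654 in replicate 2 (21.5%). Both shares were below those on the other nuclear chromosomes, 27.1% and 26.7%. Of the peaks in the limited lists, 77 of 580 (13.3%) and 96 of 586 (16.4%) were of this kind, matched against the whole list of the other replicate. Elsewhere the shares were 24.5% and 25.7%. The 5 highest-ranked peaks outside the combined list were 7580266 to 7580581, 6323669 to 6323984, 14836932 to 14837247, 10176183 to 10176498 and 7133216 to 7133531 in replicate 1, at ranks 95 to 221 on IV. In replicate 2 they were 5183730 to 5184049, 7188872 to 7189191, 7044740 to 7045059, 9074267 to 9074586 and 6910088 to 6910407, at ranks 87 to 158. All 5 of replicate 2 and 3 of the 5 of replicate 1 were overlapped by the other replicate.

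The highest-ranked replicate peaks that the other replicate lacked mostly had a combined peak. In replicate 1 they were 9321163 to 9321478, 6323669 to 6323984, 4394022 to 4394337, 12034143 to 12034458 and 8627441 to 8627756, at ranks 111 to 186 on IV. The combined list lacked the second of these and held the others, at ranks 520, 507, 69 and 320. In replicate 2 they were 10346051 to 10346370, 8527466 to 8527785, 9721425 to 9721744, 11582501 to 11582820 and 10852418 to 10852737, at ranks 97 to 174, and all 5 lay in combined peaks, of rank 68, 161, 421, 423 and 560.

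Beside the other chromosomes, IV was close to the average in number in the combined list and had the lowest share of peaks over 1 kb. It held 17.4% of the combined peaks (16.2% to 18.6%) on 17.4% of the nuclear length, or 38.6 peaks per Mb against 38.8 on the other 5 nuclear chromosomes. In the limited replicate lists it held 15.0% (13.9% to 16.2%) and 15.2% (14.1% to 16.3%) of nuclear peaks, both below its share of length. Those lists are selected by peak number among equal scores. The whole replicate lists, without that selection, had 15.4% and 15.6% of all their peaks on IV, also below its share of length. Its median width of 374 bp lay between 340 bp on V and 381 bp on III, the nearest values. Its share over 1 kb was 3.85% (2.53% to 5.58%) against 6.16% (5.35% to 7.05%), with overlapping intervals.

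Among the 6 nuclear chromosomes its share over 1 kb was the lowest, followed by 4.64% on V (3.46% to 6.09%), and those intervals overlap. The intervals of III (3.61% to 7.08%) and I (5.04% to 11.3%) also overlapped that of IV, while those of II and X did not. Over 2 kb IV was not the lowest. It had 6 of 676 such peaks, where III had 5 of 681 and X 5 of 655. There were 8 of 309 on I, 11 of 514 on II and 13 of 1055 on V. Its median q of 0.000314 lay between 0.000243 on V and 0.000364 on III. Of the replicate 1 peaks in the limited list, a combined peak overlapped 80.3% on IV (76.9% to 83.5%) against 67.4% elsewhere (65.8% to 69.0%). In replicate 2 the shares were 76.1% (72.4% to 79.5%) and 66.1% (64.5% to 67.7%). In the whole replicate lists the shares were closer, at 26.3% on IV against 23.8% elsewhere in replicate 1. For replicate 2 they were 26.1% and 22.9%. The lists also differ in make-up: IV had 676 combined peaks beside 580 in the limited list of replicate 1, and the other chromosomes 3214 beside 3283. No test of these differences between chromosomes was made.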

How the data were processed

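The 3 lists used are 1 for each PHA-4 ChIP sample and 1 combined list; Input samples were not analysed. In the combined list the q-value of each peak (a p-value adjusted by the caller) was computed by the authors with PeakSeq, per the file headers, whose comments record a lift-over to WS220. None of the 4 peaks in those comments lies on IV. The replicate lists carry a deposited score per peak from spp_via_IDR, per the file headers. Its meaning is not stated there, so it only ranked peaks, with ties ordered by deposited peak number. The sources used here do not give the aligner, thresholds, use of Input or way of combining replicates. They set list lengths and widths and thereby act on every count.

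Rows for IV were taken from each list. Counts, widths, gaps and 1-bp overlaps were computed from starts and ends. Replicate 2 had 1 repeated row, not on IV, counted once. Overlap and joining were checked on simulated data. Named regions are the 20 of lowest q, the 10 widest, all clusters, the 5 longest gaps, the extreme bins, peaks in neither replicate and leading replicate peaks. Windows and the stretch from 15 to 17 Mb were added after the values were seen. The regions and measures were chosen with earlier results of these data known. Alternatives were other overlap rules, boundaries, joining distances and lists. Genes and motifs were not analysed, because no genome or annotation of WS220 was at hand. Tools were matplotlib 3.10.9, scipy 1.17.1, pandas 2.3.3, numpy 2.4.6 and Python 3.11.15.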

Additional observations from a re-analysis of the deposited data

How the results depend on the processing

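Of 48 recomputed values, 20 stayed within the interval of the reported value, or within 1.5 times a count, and 28 moved. The shares of IV peaks in the left arm, centre and right arm stayed within their intervals for both limited replicate lists, for peaks of lowest q, for peaks overlapped by both replicates and for peaks joined within 10 kb. They moved where the boundaries changed the length compared: with the centre from 4 to 13 Mb (51.5% of the length) they were 15.8%, 68.2% and 16.0%, and with the middle 50% they were 17.8%, 67.2% and 15.1%. The centre held 1.31, 1.33 and 1.34 times its share of the length with the middle 33.3%, with 4 to 13 Mb and with the middle 50%.

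The share of IV peaks overlapped by both replicates was 69.2% when the overlap had to reach 50% of both peaks, 79.6% with midpoints within 200 bp, 44.8% with limited replicate lists and 95.7% for the 1945 peaks of lowest q in the whole list. With 1 replicate left out it was 94.1% to 95.7%, higher by construction. The share of replicate peaks overlapped by the other replicate was 37.2% and 36.1% (replicates 1 and 2) under that rule, 40.3% and 39.1% with midpoints within 200 bp, and 58.8% and 58.0% with limited lists. The share wider than 1 kb was 7.43% among peaks of lowest q and 7.61% with peaks joined within 500 bp, and 0.888% were wider than 2 kb. Clusters numbered 5 and 21 with joining within 2 and 10 kb, 7 and 3 in the limited lists of replicates 1 and 2, and 2 among peaks of lowest q. The share of nuclear peaks on IV was 15.0% and 15.2% in those limited lists. Where no construction explains a move, the cause was not tested. No paired analysis was possible because the Input samples that share replicate numbers with the ChIP samples have no peak list here. Depth is unknown, so a region absent from a list cannot be told apart from one too shallow to call.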
